A study of Mus musculus with 3 samples.

Results

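The *Adamts* genes encode secreted metalloproteinases that cut proteins of the extracellular matrix (ECM). This account follows 8 of them, *Adamts1*, *Adamts2*, *Adamts4*, *Adamts5*, *Adamts9*, *Adamts10*, *Adamts12* and *Adamts15*, among the 32285 genes counted in single cells of the mouse diaphragm, the main muscle of inspiration. The 8 were chosen by their symbols after their levels in these same libraries were known, so their levels by cell class, cell state and library are a description and carry no test. The remaining 11 *Adamts* genes of the files are given at the end as other family members. In fibro-adipogenic progenitors (FAPs), the lowest of the 8 over all libraries were *Adamts9* at 13.9 CPM (UMI counts scaled to a common total, as defined below) and *Adamts15* at 14.1 CPM. Outside the 8, *Adamts19* held 11.1, 8.74 and 7.04 CPM, *Adamts6* 10.2, 10.2 and 8.99 CPM and *Adamts3* 7.18, 8.15 and 9.18 CPM in WT CD, WT HFD and KO HFD, the groups described next.

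Each group was 1 library made from male mice. WT CD was C57Bl/6J on control diet (CD), WT HFD was C57Bl/6J on high-fat diet (HFD), and KO HFD was the *Thbs1*-/- strain B6.129S2-Thbs1tm1Hyn/J on HFD, a germline knockout that affects every cell type. By the paper, all mice ate normal chow until 2 months of age. CD mice stayed on this chow for 6 months, while HFD mice were moved to the HFD for 6 months. Lipid supplied 45% of the kilocalories of the HFD. The paper names a CD matched in micronutrients as future work, so fat and other differences between the diets cannot be told apart. Cells of 2 mice were pooled per library and cannot be assigned to a mouse. A group is therefore 1 sample, and no difference between groups has a replicate check or a test. A *Thbs1*-/- library on CD was not analysed here. Strain background and the loss of *Thbs1* cannot be told apart in the KO HFD library. Digested cells were captured with the 10x Genomics 3′ chemistry, in which a unique molecular identifier (UMI) marks every mRNA molecule captured. The paper names a dead-cell stain for flow cytometry but not for this step. The libraries held 34312860, 31967976 and 36478779 UMIs in 4132, 3774 and 4369 barcodes, with WT CD first and KO HFD last, the order used below. The level used here is CPM, the UMIs of a gene scaled by all UMIs of the same cells. A molecule is counted once whatever its length, so CPM of different genes needs no scaling by length. Other differences in capture between genes were not assessed. Intervals are 95% and cover counting error only, not differences between mice. Pairs of libraries shared 7, 7 and 2 barcode sequences.

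An ADAMTS protease is made as an inactive proprotein, is trimmed by furin-like convertases and is then released, where its thrombospondin repeats and other ancillary domains hold it to the matrix. The group of *Adamts1*, *Adamts4*, *Adamts5*, *Adamts9* and *Adamts15* is known for cutting large proteoglycans such as versican and aggrecan. *Adamts2* removes the amino-terminal propeptide of fibrillar procollagens so that fibrils can form, *Adamts10* is tied to fibrillin microfibrils, and *Adamts12* is known for cutting cartilage oligomeric matrix protein. In skeletal muscle, much of the interstitial matrix is made by FAPs, the *Pdgfra*-expressing stromal cells that lie between fibers. Tissue inhibitor of metalloproteinases 3 (*Timp3*) inhibits several of these proteases, and the receptor *Lrp1* clears them from outside the cell.

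In the GENCODE M21 annotation of GRCm38, the build of the files, *Adamts1* (ENSMUSG00000022893) lies at chr16:85793827-85803113 and *Adamts5* (ENSMUSG00000022894) at chr16:85856173-85901828, both on the minus strand. They lie 53059 bases apart, with 1 noncoding gene and no coding gene between them. The other members lie on other chromosomes: *Adamts2* (ENSMUSG00000036545) at chr11:50602084-50807573, *Adamts4* (ENSMUSG00000006403) at chr1:171250421-171260637, *Adamts9* (ENSMUSG00000030022) at chr6:92772699-92943492, *Adamts10* (ENSMUSG00000024299) at chr17:33524204-33553782, *Adamts12* (ENSMUSG00000047497) at chr15:11064790-11349231 and *Adamts15* (ENSMUSG00000033453) at chr9:30899155-30922452. *Adamts9* overlaps A730049H05Rik, Gm15737 and 9530026P05Rik, and *Adamts2* overlaps Gm12198, Gm12199 and Gm12200, each on the opposite strand. The 3′ chemistry keeps the strand of the mRNA, but the counting setting is not given in the sources used here.

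Promoter sequences were found in RefSeq (GRCm38.p6) for *Adamts1*, *Adamts2*, *Adamts9* and *Adamts12*. The 250 bases before the RefSeq start of 3 of them are shown, 5′ to 3′ on the strand of the gene, because *Adamts1* and *Adamts9* were high in endothelial cells whereas FAPs held 95.1% of the *Adamts2* UMIs. Capitals mark matches on either strand to TATAAA or to the GC box GGGCGG. The windows are chr16:85803114-85803363 (minus strand), chr6:92943535-92943784 (minus strand) and chr11:50601835-50602084 (plus strand).
Adamts1: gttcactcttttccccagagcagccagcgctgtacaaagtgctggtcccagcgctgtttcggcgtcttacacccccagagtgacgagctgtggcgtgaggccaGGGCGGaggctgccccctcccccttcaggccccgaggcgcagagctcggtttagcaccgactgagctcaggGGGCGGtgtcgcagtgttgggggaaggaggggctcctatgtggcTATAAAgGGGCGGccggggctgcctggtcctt
Adamts9: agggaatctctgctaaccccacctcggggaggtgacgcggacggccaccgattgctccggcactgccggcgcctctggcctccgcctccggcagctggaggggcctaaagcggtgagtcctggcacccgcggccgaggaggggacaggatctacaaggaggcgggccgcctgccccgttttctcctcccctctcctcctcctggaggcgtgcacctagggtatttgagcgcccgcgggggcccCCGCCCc
Adamts2: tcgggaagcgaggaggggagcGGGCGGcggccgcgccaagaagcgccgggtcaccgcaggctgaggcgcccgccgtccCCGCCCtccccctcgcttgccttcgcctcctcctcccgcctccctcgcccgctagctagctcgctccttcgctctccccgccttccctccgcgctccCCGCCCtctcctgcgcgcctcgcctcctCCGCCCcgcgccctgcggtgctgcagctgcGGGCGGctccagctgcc
The *Adamts1* window held 1 TATAAA, 32 bases before the start, and 3 GC boxes, the *Adamts9* window 1 GC box and the *Adamts2* window 5, and the *Adamts12* window held neither. TATAAA occurred in 12.4% and the GC box in 32.7% of the 32851 windows of this length. AP-1 sites (TGACTCA or TGAGTCA, in 4.46% of windows), the cyclic AMP element TGACGTCA (1.55%) and the CArG box (1.47%) had no match in any of these 4 windows. None of these motifs overlapped another in the printed windows.

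Clusters were named from marker genes, and 6655 of the 12275 cells fell in FAP-like clusters, 2248 in WT CD, 1994 in WT HFD and 2413 in KO HFD. These cells, called FAPs below, held the FAP markers at 17007, 14875 and 16432 CPM in sum, with *Dcn* the most abundant. The summed markers of MuSC (muscle stem cell), endothelial, mural, mesothelial, lymphoid and macrophage lists were each at most 16.7 CPM in FAPs of every library. The tenocyte list summed to 963, 980 and 828 CPM, of which *Thbs4* held 904, 900 and 750 CPM. *Thbs4* was also among the 10 leading genes of 2 of the FAP-like clusters, of 1166 and 633 cells, and no FAP marker was, so values of the members that differ without these clusters are given with the comparisons below. The monocyte list summed to 289, 279 and 300 CPM, of which *Ace* held 234, 225 and 237 CPM.

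FAPs, as named here, held a larger share of the *Adamts* transcripts than of all transcripts. Of the 78655 UMIs of the 8 genes, 82.7% (interval 82.4 to 83.0%) were in FAPs, which held 58.0% of the UMIs of all genes. The share was 83.2% in WT CD, 83.4% in WT HFD and 81.7% in KO HFD, so it varied little between libraries. It depended on which cells were named FAPs: it was 72.9% with FAPs taken by marker UMIs, which held 51.2% of all UMIs, and 49.4% at Leiden resolution 2, where fewer clusters took the FAP name and held 35.6% of all UMIs. MuSC-like cells held 5.25%, endothelial-like cells 4.56% and lymphatic-like cells 2.20%. In FAPs of the 3 libraries summed, *Adamts1* made up 39.3% of the members' UMIs, *Adamts5* 35.6% and *Adamts2* 15.5%, and the other 5 genes shared the rest. In WT HFD the first 2 stood in the other order, with 9253 UMIs of *Adamts5* and 7134 of *Adamts1*. Endothelial-like cells stood level with FAPs in the sum of the 8 genes, 1101 against 1092 CPM, but *Adamts1* alone was 84.2% of it.

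**Figure D1:**
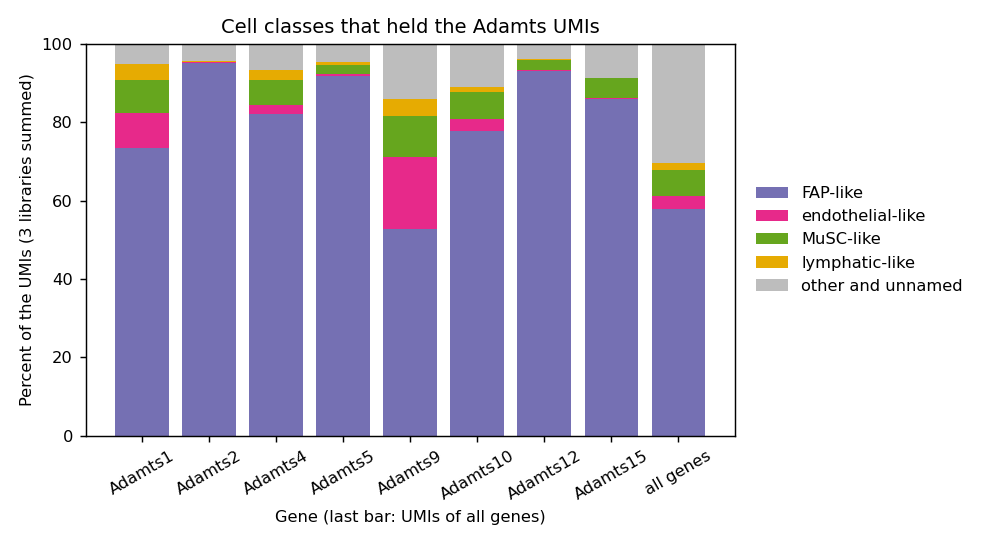
Percent of the UMIs of each member held by FAP-like, endothelial-like, MuSC-like, lymphatic-like and all other cells, 3 libraries summed, with the UMIs of all genes in the last bar. The FAP-like part runs from 52.7% for *Adamts9* to 95.1% for *Adamts2*, against 58.0% for all genes.

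The members differed in how far they were restricted to FAPs. The share of UMIs in FAPs was 95.1% for *Adamts2*, 93.1% for *Adamts12*, 91.7% for *Adamts5*, 85.9% for *Adamts15*, 82.1% for *Adamts4*, 77.8% for *Adamts10*, 73.6% for *Adamts1* and 52.7% for *Adamts9*. *Adamts9* alone was under the 58.0% that FAPs held of all UMIs, with an interval of 50.2 to 55.2%.

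**Figure D2:**
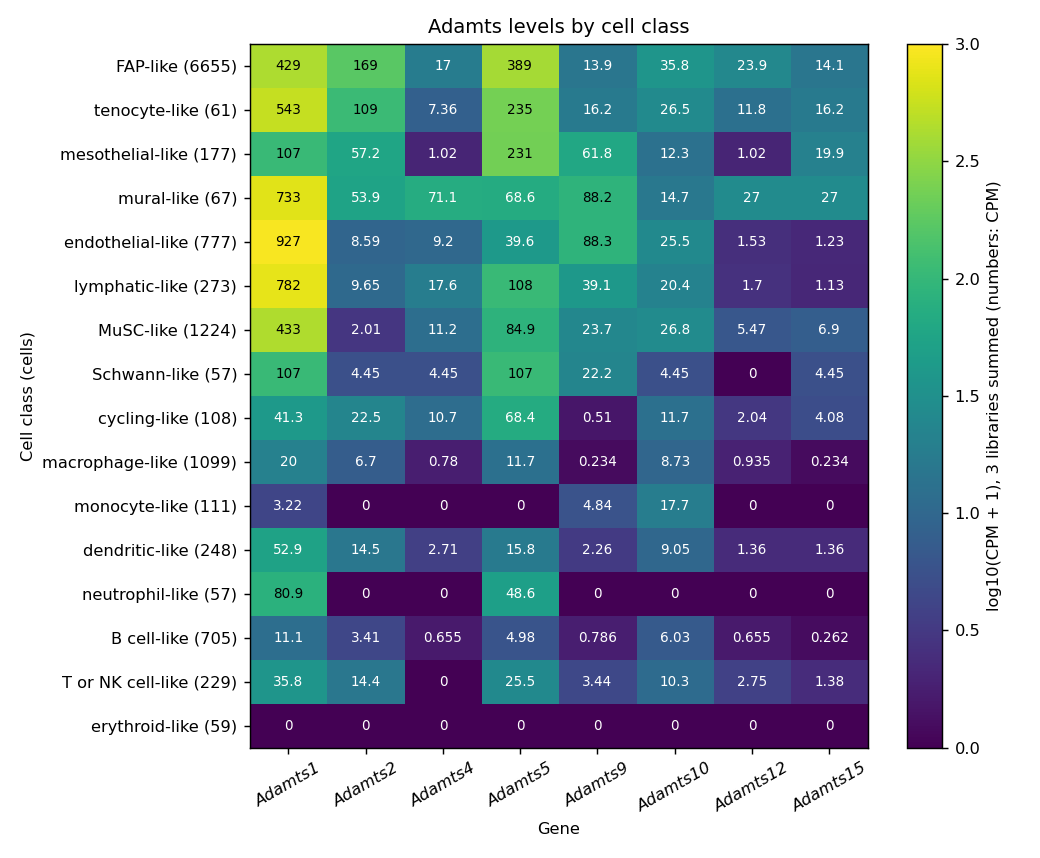
Level of each member (columns) in each cell class of 50 or more cells (rows, cell number in parentheses), 3 libraries summed. Color is log10(CPM + 1) and the printed number is CPM. *Adamts1* is bright in all stromal and vascular rows, *Adamts2* and *Adamts5* are brightest in FAP-like cells, and the macrophage-like, monocyte-like and B cell-like rows hold no value above 19.96 CPM.

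*Adamts1*, first known as a gene induced by inflammation and later as a versican-cutting protease, was the most abundant member in the 3 libraries summed, though not in FAPs of WT HFD, and the one highest in endothelial-like cells. Endothelial-like cells held 952, 859 and 980 CPM in the 3 libraries, lymphatic-like cells 604, 814 and 861 CPM and mural-like cells (pericytes and smooth muscle, 67 cells) 532, 818 and 720 CPM. FAPs held 412, 380 and 490 CPM and MuSC-like cells 455, 377 and 451 CPM. Every endothelial value was above every FAP and MuSC value, whereas FAPs overlapped MuSC-like cells, and lymphatic-like overlapped mural-like and endothelial-like cells. Macrophage-like cells held 30.3, 16.9 and 17.0 CPM and B cell-like cells 12.1, 3.41 and 18.0 CPM.

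*Adamts9*, a protease of versican that is also known from blood vessels, had the same vascular lean at a lower level. Its values were 69.0, 99.8 and 97.5 CPM in endothelial-like, 73.9, 76.9 and 107 CPM in mural-like and 64.7, 43.5 and 90.6 CPM in mesothelial-like cells, which line the surface of the diaphragm. FAPs held 14.3, 12.2 and 14.99 CPM and MuSC-like cells 19.0, 18.6 and 29.5 CPM. All FAP values were below all values of these other classes. In mast-like cells, *Adamts9* had 4 UMIs in 25 cells, too few for a level.

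*Adamts5*, the other main aggrecan- and versican-cutting protease, was a stromal gene. FAPs held 313, 493 and 368 CPM, mesothelial-like cells 190, 243 and 246 CPM and lymphatic-like cells 96.9, 128 and 86.8 CPM. MuSC-like cells held 108, 72.4 and 77.6 CPM and endothelial-like cells 25.3, 55.1 and 37.7 CPM. FAP values were above those of all of these classes in every library, and lymphatic-like and MuSC-like cells overlapped. Tenocyte-like cells held 146, 227 and 351 CPM, but this class had only 61 cells, of which 37.7% were called as doublets. *Adamts1* and *Adamts5*, although neighbors on chromosome 16, were thus ordered differently: in endothelial-like cells over all libraries *Adamts1* was at 927 CPM and *Adamts5* at 39.6 CPM, whereas in FAPs they were at 429 and 389 CPM.

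*Adamts2*, the procollagen amino-propeptidase, stood at 157, 181 and 170 CPM in FAPs. It was at 69.0, 57.3 and 47.1 CPM in mesothelial-like cells and at 73.9, 33.0 and 69.4 CPM in mural-like cells (22 UMIs in all), values that overlapped each other and lay below those of FAPs. Of the tenocyte-like cells, 63.9% carried an *Adamts2* UMI, against 68.0% of FAPs. With each cell thinned to 3000 UMIs, the shares were 29.5% and 36.5%. Of this class, 37.7% were called as doublets. MuSC-like cells held 14 UMIs in all, 2.01 CPM (interval 1.10 to 3.38), and endothelial-like cells 28 UMIs, 8.59 CPM. MuSC-like cells were thus level with FAPs for *Adamts1* but far lower for *Adamts2*.

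The 4 remaining members were less abundant in FAPs than *Adamts1*, *Adamts2* and *Adamts5*. *Adamts10* was spread over many classes, at 34.5, 35.6 and 37.1 CPM in FAPs, 30.8, 29.6 and 22.6 CPM in MuSC-like cells and 21.8, 29.3 and 25.2 CPM in endothelial-like cells. It made up 3.27% of the members' UMIs in FAPs, 17.7% in macrophage-like cells, 21.6% in B cell-like cells and 11 of 16 UMIs in monocyte-like cells, but 0 of 16 UMIs in neutrophil-like cells, where all UMIs of *Adamts1* were in 1 cell and all those of *Adamts5* in 1 cell. In T or NK cell-like and dendritic-like cells it held fewer UMIs (15 and 20) than *Adamts1*, *Adamts2* or *Adamts5*. *Adamts12* was at 19.8, 27.9 and 24.1 CPM in FAPs and 29.6, 16.5 and 37.9 CPM in mural-like cells (11 UMIs in all), values that overlapped, and had 5 UMIs in all endothelial-like cells. *Adamts15*, a lesser-known proteoglycan-cutting member, was at 11.2, 15.4 and 15.7 CPM in FAPs and 15.1, 19.1 and 25.4 CPM in mesothelial-like cells, values that overlapped.

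*Adamts4*, an inducible aggrecan-cutting protease, was at 12.7, 18.6 and 19.5 CPM in FAPs. Mural-like cells held 0 UMIs in WT CD, which allows up to 44.3 CPM at 3 counts, 7 UMIs (38.4 CPM, interval 15.5 to 79.2) in WT HFD and 22 UMIs (139 CPM, interval 87.0 to 210) in KO HFD. These came from 15, 28 and 24 cells.

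Most FAPs carried at least 1 *Adamts* UMI. The share of FAPs with a UMI of any of the 8 genes was 97.4%, and the median cell had UMIs of 3 of them. For single genes the share was 80.4% for *Adamts1*, 73.3% for *Adamts5* and 68.0% for *Adamts2*. It was 26.0% for *Adamts10*, 16.9% for *Adamts12*, 10.2% for *Adamts4*, 10.2% for *Adamts15* and 7.87% for *Adamts9*. With each cell thinned to 3000 UMIs, which left out 169 shallower FAPs, the shares were 58.5% for *Adamts1*, 50.7% for *Adamts5*, 36.5% for *Adamts2*, 10.5% for *Adamts10*, 6.97% for *Adamts12*, 4.04% for *Adamts4*, 3.96% for *Adamts15* and 2.98% for *Adamts9*. In B cell-like cells, taken as the class for comparison and of like depth (median 8384 UMIs against 8609 in FAPs), the thinned shares were 1.36% for *Adamts1*, 0.603% for *Adamts5* and *Adamts2*, 1.06% for *Adamts10* and 0.302% or less for the others. All 8 shares in FAPs were above those of B cell-like cells, a class with low levels of these genes. This does not place FAPs above every other class. Without thinning, 22.9% of endothelial-like and 29.9% of mural-like cells had an *Adamts9* UMI, against 7.87% of FAPs. For *Adamts4* it was 16.4% of mural-like cells against 10.2% of FAPs. For *Adamts1* it was 64.7% of endothelial-like cells, below the 80.4% of FAPs, but endothelial-like cells were shallower (median 3513 UMIs). *Adamts10* made up a larger part of the members' UMIs in B cell-like cells than in FAPs. The part of free RNA in B cell-like cells was not tested.

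FAPs were divided by k-means into 7 clusters, F1 to F7, without the *Adamts* genes or the other listed genes, so that none of these could place a cell. F1 (1444 cells) was led by *Clec2d*, *Inmt* and *Txnip*, F2 (1265) by *Lifr*, *Col4a4* and *Plau*, F3 (1025) by *Cmah*, *Wnt10b* and *Dact2*, and F4 (944) by *Fmod*, *Sfrp2* and *Kdr*. F5 (901) was led by *Postn*, *Sfrp4* and *Dkk3*, F6 (875) by *C4b*, *Sult1e1* and *Col6a5*, and F7 (201) by *Cst6*, *Apod* and *Rasgrp2*. The level of a member in its highest cluster over that in its lowest was, at the median of the 8, 1.46 on the log2 scale.

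**Figure D3:**
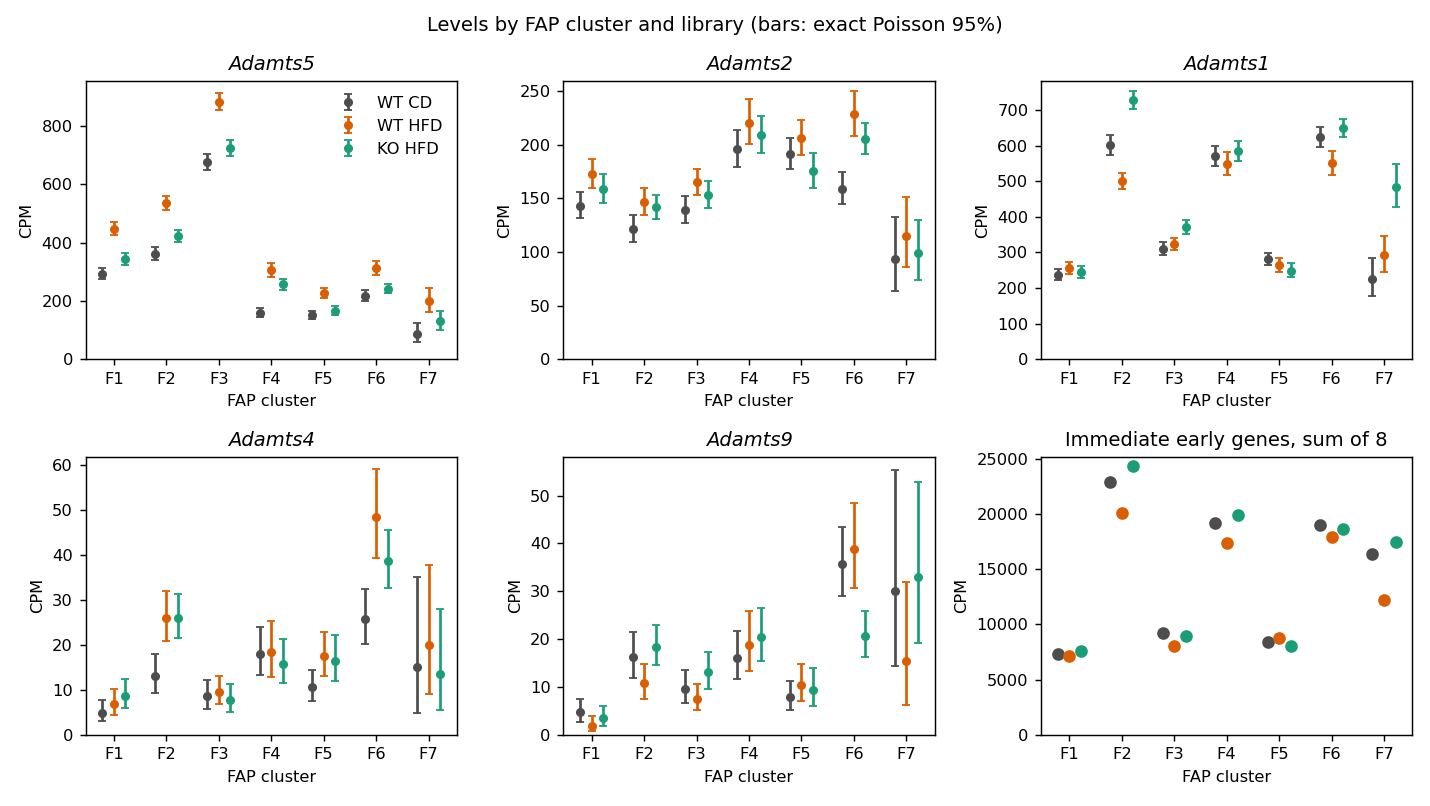
Level (CPM) of 5 members and of the sum of 8 immediate early genes in FAP clusters F1 to F7, by library, with exact Poisson 95% intervals for the single genes. *Adamts5* peaks in F3 in every library, while *Adamts1* is higher in F2, F4 and F6 than in F1, F3 and F5, the clusters with the lowest immediate early gene sums.

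*Adamts5* was highest in F3, at 677, 884 and 724 CPM in WT CD, WT HFD and KO HFD. It was lowest in F7, at 87.4, 199 and 130 CPM. Every F3 value exceeded every value of every other cluster. Over all libraries the order was F3 (770 CPM), F2 (442), F1 (360), F6 (250), F4 (235), F5 (180) and F7 (143), where each cluster below F3 overlapped its neighbors in the order between libraries. The *Cmah*- and *Dact2*-led cluster was also the highest for *Adamts5* when FAPs were divided into 5 clusters or with all variable genes.

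*Adamts1* had another order. It was at 600, 500 and 727 CPM in F2, 623, 551 and 650 CPM in F6 and 570, 548 and 585 CPM in F4. F1, F3 and F5 held between 238 and 371 CPM in the 3 libraries. No value of F2, F4 or F6 overlapped a value of F1, F3 or F5, and F7 held 226, 292 and 485 CPM. Thus F3, the cluster with the most *Adamts5*, was among the clusters with low *Adamts1*.

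*Adamts4* and *Adamts9* followed *Adamts1* in part. *Adamts4* was highest in F6, at 25.8, 48.4 and 38.7 CPM, against 4.94, 6.87 and 8.72 CPM in F1 and 8.53, 9.56 and 7.77 CPM in F3. *Adamts9* was at 35.7, 38.9 and 20.7 CPM in F6 and at 4.68, 1.92 and 3.49 CPM in F1. The F6 and F1 values did not overlap for either gene. The 8 immediate early genes, transcription factors such as *Fos* and *Egr1* that are switched on within minutes of a stimulus and also by tissue digestion, summed to 22542 CPM in F2, 18966 in F4, 18557 in F6 and 15318 in F7, against 7331 in F1, 8688 in F3 and 8401 in F5. The part of these genes in the levels of *Adamts1*, *Adamts4* and *Adamts9* was not tested.

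Among the other members, *Adamts2* ran from 103 CPM in F7 to 208 CPM in F4, with F4, F5 (192) and F6 (196) within overlapping intervals. *Adamts12* ran from 15.2 CPM in F3 to 35.0 CPM in F6, so it was lowest where *Adamts5* was highest. *Adamts10* ran from 26.6 CPM in F3 to 46.0 CPM in F4. *Adamts15* was highest in F7, at 33.1, 31.0 and 27.1 CPM on 39 UMIs in all, and lowest in F5, at 9.97 CPM over all libraries.

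The comparison of WT HFD with WT CD asks what differed in FAPs after 6 months of HFD. *Adamts5* was 1.58-fold higher in the WT HFD library, 493 against 313 CPM (log2 ratio 0.66, interval 0.61 to 0.70), and was the only member past 1.5-fold. *Adamts4* (12.7 to 18.6 CPM, log2 ratio 0.55, interval 0.31 to 0.78), *Adamts12* (19.8 to 27.9 CPM, 0.49, 0.30 to 0.69) and *Adamts15* (11.2 to 15.4 CPM, 0.46, 0.20 to 0.72) were higher by 1.38- to 1.46-fold. *Adamts2* differed less (157 against 181 CPM, 0.21, 0.14 to 0.28). *Adamts1* was lower (412 against 380 CPM, -0.11, -0.16 to -0.07), and for *Adamts9* (-0.23, -0.48 to 0.03) and *Adamts10* (0.05, -0.11 to 0.20) the interval held 0. Together the 8 genes stood at 974 CPM in WT CD and 1164 CPM in WT HFD.

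Against the background, 1 of 8 members was higher by 1.5-fold or more, where 1.27% of the 10966 genes with at least 100 UMIs in the 2 libraries were, and no member was lower by that fold, where 1.54% were. Since the members were picked with these levels known, nothing is read from that count. The median log2 ratio was 0.33 for the members and 0.08 for all genes tested, and 78 genes had a higher ratio than *Adamts5*. The call of *Adamts5* lay close to the threshold: it was 0.58 with trimmed-mean (TMM) scaling, which put it just under 1.5-fold, and 0.59 without the FAP-like clusters led in part by *Thbs4*, which left it just above. Without those clusters *Adamts4* was past 1.5-fold as well (0.62), *Adamts15* was at 0.58, *Adamts2* at 0.32 and *Adamts9* at -0.43.

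**Figure D4:**
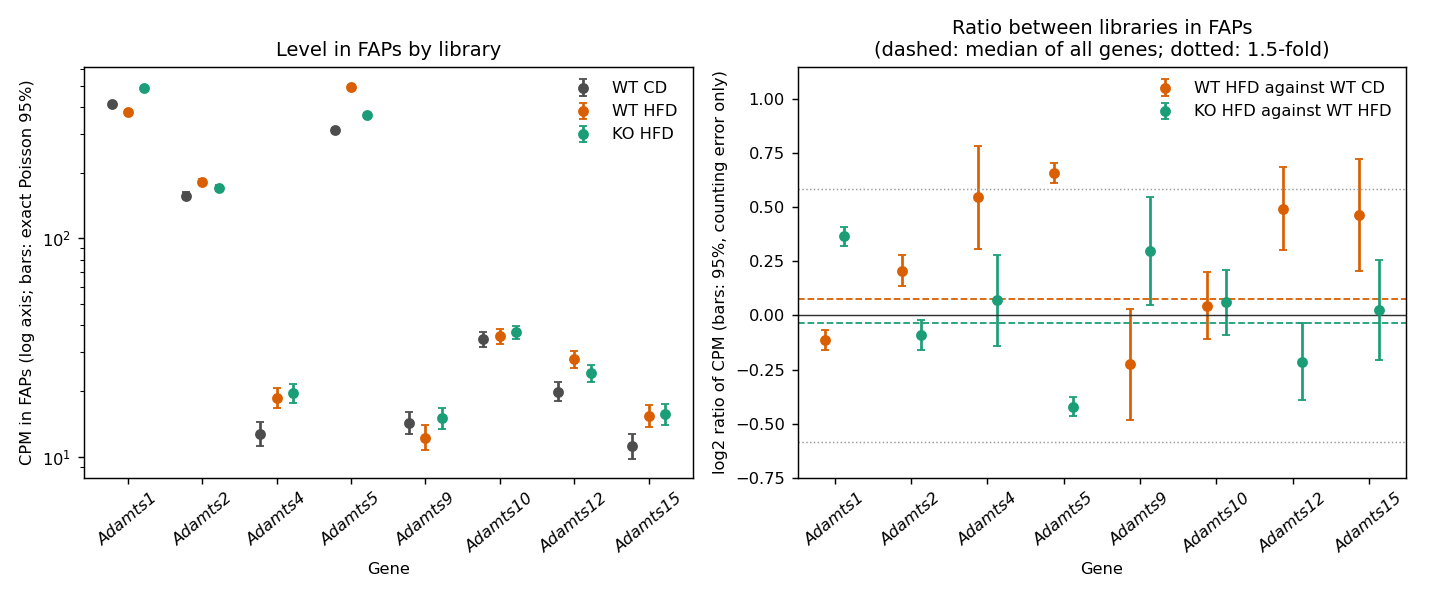
Left, level of each member in FAPs of each library (CPM, log axis, exact Poisson 95% intervals). Right, log2 ratio of CPM for WT HFD against WT CD and KO HFD against WT HFD with 95% intervals for counting error, the median of all genes tested (dashed) and 1.5-fold (dotted). *Adamts5* is the only member beyond a dotted line, at 0.66, and it is at -0.42 in the second comparison.

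The higher *Adamts5* was seen in each FAP cluster. It was higher in WT HFD than in WT CD in 7 of 7 clusters, with an interval above 0 in each, and the log2 ratio ran from 0.38 in F3 (677 to 884 CPM) to 1.19 in F7 (87.4 to 199 CPM, on 29 and 90 UMIs). F4 stood next, at 0.94 (159 to 306 CPM). F3, the cluster richest in *Adamts5*, made up 14.1% of FAPs in WT CD, 18.8% in WT HFD and 13.8% in KO HFD. With the 7 clusters weighted alike, the log2 ratio was 0.58, just under 1.5-fold, while *Adamts4* (0.61) and *Adamts12* (0.63) were past it. *Adamts2*, *Adamts4* and *Adamts12* were also higher in 7 of 7 clusters, with an interval above 0 in 4, 3 and 4 of them. The clusters are parts of the same 2 libraries, so these counts are not repeated evidence. Over all FAPs, 7374 of 10966 genes had a log2 ratio above 0, and how many did so in each cluster was not counted. *Adamts1* was higher in 3 of 7, with an interval below 0 in F2 and F6 and above 0 in none.

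Outside FAPs, *Adamts5* did not follow a single direction. It was higher in WT HFD in endothelial-like cells (25.3 against 55.1 CPM, log2 ratio 1.12, interval 0.47 to 1.81) and lower in MuSC-like cells (108 against 72.4 CPM, -0.58, -0.91 to -0.26). In mesothelial-like (190 against 243 CPM) and lymphatic-like cells (96.9 against 128 CPM, 0.40, -0.15 to 0.98) the interval held 0. *Adamts1* was higher in lymphatic-like cells (604 against 814 CPM, 0.43, 0.22 to 0.65) and lower in MuSC-like cells (455 against 377 CPM, -0.27, -0.42 to -0.13) and endothelial-like cells (952 against 859 CPM, -0.15, -0.27 to -0.02).

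The comparison of KO HFD with WT HFD asks what differed on HFD in mice labelled *Thbs1*-/-. It shares the WT HFD library with the first comparison, so they cannot be read as separate evidence. *Adamts5* was at 368 CPM in KO HFD against 493 CPM in WT HFD (log2 ratio -0.42, interval -0.47 to -0.38), and at 313 CPM in WT CD. *Adamts1* was at 490 against 380 CPM (0.37, 0.32 to 0.41), and *Adamts9* at 14.99 against 12.2 CPM (0.30, 0.05 to 0.55). *Adamts12* was at 24.1 against 27.9 CPM (-0.21, -0.39 to -0.03) and *Adamts2* at 170 against 181 CPM (-0.09, -0.16 to -0.02). For *Adamts4* (0.07, -0.14 to 0.28), *Adamts10* (0.06, -0.09 to 0.21) and *Adamts15* (0.02, -0.21 to 0.26) the interval held 0.

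No member differed by 1.5-fold between KO HFD and WT HFD. Of the 11042 genes tested, 1.23% were higher and 0.743% lower by that fold. The members' median log2 ratio was 0.04 and that of all genes -0.03. *Adamts5* was nevertheless near the low end, since 10821 genes had a higher ratio, and *Adamts1* near the high end, since 423 had a higher one. The 8 genes together stood at 1139 CPM in KO HFD and 1164 CPM in WT HFD.

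By FAP cluster, *Adamts5* was lower in KO HFD than in WT HFD in 7 of 7, with an interval below 0 in each and log2 ratios from -0.62 in F7 to -0.25 in F4. *Adamts2* and *Adamts12* were lower in 7 of 7 clusters, but the interval lay below 0 in 1 cluster for each. These clusters again share 2 libraries, so the counts are not repeated evidence. Over all FAPs, 4585 of 11042 genes had a log2 ratio above 0 in this comparison. *Adamts1* was higher in 5 of 7, most in F7 (292 against 485 CPM, 0.73) and F2 (500 against 727 CPM, 0.54). *Adamts9* was lower in F6 (38.9 against 20.7 CPM), although it was higher over all FAPs. Without the clusters led in part by *Thbs4*, *Adamts5* was at -0.47, *Adamts1* at 0.42 and *Adamts12* at -0.32. F2, F4 and F6, the clusters rich in *Adamts1*, made up 19.0, 11.9 and 9.93% of FAPs in WT HFD and 22.05, 14.9 and 15.7% in KO HFD. With the clusters weighted alike, *Adamts1* was at 0.28, *Adamts9* at 0.19, *Adamts5* at -0.35 and *Adamts4* at -0.20, the other sign from its value over all FAPs.

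Over all FAPs, the immediate early genes ordered the libraries as *Adamts1* did, but not in every cluster. Their sum in FAPs was 13539 CPM in WT CD, 12312 in WT HFD and 15175 in KO HFD, and *Adamts1* stood at 412, 380 and 490 CPM. In WT HFD against WT CD, the sum and *Adamts1* were both lower in F2, F4 and F6. In F1, F3 and F7 the sum was lower and *Adamts1* higher, as in F3 (9230 to 8058 and 310 to 322 CPM). In F5 the sum was higher and *Adamts1* lower. The *Adamts1* interval held 0 in F1, F3, F4, F5 and F7. None of the 8 immediate early genes had a log2 ratio above 0 over all FAPs in WT HFD against WT CD (median -0.18), where 7374 of 10966 genes had one. All 8 had one in KO HFD against WT HFD (median 0.32), where 4585 of 11042 genes had one. *Nr4a1* was the one past 1.5-fold (286 against 429 CPM, 0.59, interval 0.54 to 0.64), and *Fos* was the most abundant at 4019, 3970 and 4639 CPM. The erythroid markers in FAPs summed to 2.17, 38.4 and 2.86 CPM, the highest in WT HFD, led by *Hbb-bs*, while the median UMIs per FAP were 8417.5, 9142.5 and 8371. The part of these differences in the *Adamts* ratios was not tested.

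Among the other *Adamts* genes, 4 of 11 reached 100 UMIs in each comparison. *Adamts16* was past 1.5-fold in WT HFD against WT CD, at 1.57 against 5.11 CPM on 31 and 96 UMIs (log2 ratio 1.71, interval 1.11 to 2.34), and was at 4.04 CPM in KO HFD. *Adamts13* and *Adamts18* had 1 and 0 UMIs in all FAPs. Of the 7 ADAMTS-like genes, which encode related matrix proteins without a protease domain, 6 were tested. *Adamtsl2*, a binding partner of fibrillin-1, was at 10.1, 19.3 and 16.5 CPM (WT HFD against WT CD 0.94, 0.69 to 1.20). *Adamtsl3* was the most abundant of that list at 58.6, 80.3 and 77.4 CPM.

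Several known substrates were counted in FAPs. *Vcan*, encoding versican, was at 202, 268 and 209 CPM in FAPs of WT CD, WT HFD and KO HFD (log2 ratios 0.41 and -0.36). The aggrecan gene *Acan* and the neurocan gene *Ncan* had 0 UMIs in FAPs, which allows up to 0.152, 0.160 and 0.143 CPM at 3 counts. *Dcn* was the most abundant of the proteoglycan list at 16418, 14259 and 15760 CPM. *Col3a1* led the fibrillar procollagens, the substrates of *Adamts2*, at 2642, 3608 and 3010 CPM (0.45 and -0.26). All 5 tested procollagens had a log2 ratio above 0 in WT HFD against WT CD (median 0.30), where 7374 of 10966 genes had one. None had one in KO HFD against WT HFD (median -0.18), where 4585 of 11042 genes had one, and none was past 1.5-fold in either.

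*Fbn1*, encoding fibrillin-1, was past 1.5-fold at 784, 1240 and 993 CPM (0.66, interval 0.63 to 0.69, then -0.32) and was the most abundant of the microfibril and other substrate list in WT HFD, but not in WT CD, where *Nid1* was higher (797 CPM), or in KO HFD, where *Fn1* was (1033 CPM). *Comp*, the substrate linked to *Adamts12*, was at 17.8, 25.8 and 27.2 CPM. Among inhibitors, *Timp1* was at 44.7, 113 and 87.3 CPM (1.33, 1.22 to 1.45), whereas *Timp3*, the inhibitor most closely tied to these proteases, was at 312, 288 and 305 CPM. *Timp2* was the most abundant inhibitor at 1313, 1495 and 1410 CPM, and the clearance receptor *Lrp1* was at 1003, 1045 and 1118 CPM. None of the 6 genes for proprotein convertases and the sugar transferases that act on thrombospondin repeats passed 1.5-fold. *Pcsk6* was the most abundant of them at 448, 550 and 522 CPM, and *Furin* stood at 24.98, 25.1 and 25.1 CPM.

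*Thbs1* itself was counted in all cells at 136, 202 and 163 CPM and in FAPs at 193, 232 and 229 CPM. In all cells, KO HFD was above WT CD and below WT HFD. In FAPs, KO HFD was above WT CD, and against WT HFD the interval held 0 (log2 ratio -0.02, -0.08 to 0.04). The UMIs come from the 3′ end, and where the targeted allele changes the transcript is not given in the sources used here, so this count does not check the KO label.

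Genes with the profile most like each member were sought among 10357 genes over 27 sums of a class and a library, from 10 classes of 50 or more cells. These sums share libraries and classes and are not independent, and the correlation of log2(CPM + 1) is a description. *Adamts1* was most like *Wwtr1* (Pearson's r 0.97), *Ccn1* and *Fermt2* (0.96 each). *Adamts2* was most like *Col1a1*, *Mmp23* and *Col1a2* (0.95 each). *Adamts5* was most like *Sh3d19* (0.96), *Fhl1* and *Sgce* (0.95 each), and *Adamts9* like *Cdc42ep1* (0.96), *Arhgap29* and *Cav1* (0.95 each).

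The other members had looser neighbors. *Adamts4* was most like *Jun* (0.90) and *Stard13* (0.89), *Adamts10* like *Cyth3* (0.89), *Klf9* (0.88) and *Pdlim7* (0.87), *Adamts12* like *Galnt16* (0.92), *Dnm3os* (0.90) and *Dpyd* (0.89), and *Adamts15* like *Dlg3* and *Pmm1* (0.92 each) and *Gpx8* (0.90). Between members, the highest values were 0.89 for *Adamts1* with *Adamts9* and 0.88 for *Adamts1* with *Adamts4*. The pair of neighbors on chromosome 16, *Adamts1* and *Adamts5*, stood at 0.78, and the lowest value was 0.31, for *Adamts2* with *Adamts10*.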

How the data were processed

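The authors aligned 10x Genomics 3′ reads to mm10 (GRCm38) with Cell Ranger (version 6.1.1 in the submitters' processing notes) and deposited whole-number UMI counts per gene and barcode without normalization. All 12275 barcodes were kept, and a filter on cells was not given in the sources used here. Cells were scaled, clustered (2000 variable genes, 30 principal components, 15 neighbors, Leiden resolution 1) and named from marker lists with scanpy 1.11.5 in Python 3.11.15. Scrublet called 1.26, 1.09 and 1.33% of barcodes as doublets, which were kept. Of 28 clusters, 2 (343 cells) stayed unnamed. FAPs were divided by k-means (k = 7, 10 principal components) with 284 genes left out: the members, the lists, all cell type and FAP state markers, and genes differing 1.5-fold between libraries. UMIs were summed per class and library and divided by the total (CPM), with exact Poisson intervals. Shares carry exact Clopper-Pearson intervals and ratios an interval from the binomial split of UMIs. Genes with at least 100 UMIs in the 2 libraries were compared, and 1.5-fold was the threshold. With 1 library per group no test or p-value was made. edgeR 4.0.16 in R 4.3.3 gave the TMM factors of an alternative. The ratio and its interval were tested on simulated data with known folds.

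The members and the gene lists were chosen with earlier results of these data known. Named were the members, each list's most abundant gene and genes past 1.5-fold, and the 3 genes most like each member with 500 or more UMIs, of which 1 is not reported here. *Thbs4*, *Nid1*, *Fn1*, *Vcan*, *Comp*, *Timp3*, *Lrp1*, *Furin*, *Acan*, *Ncan*, *Adamts3*, *Adamts13*, *Adamts18* and *Adamts19* were named beyond that rule after their values were seen.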

Additional observations from a re-analysis of the deposited data

Results flagged for a closer look

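*Adamts1* differed in opposite directions between cell classes in WT HFD against WT CD, and these differences between classes were not tested. It was higher in mural-like cells (532 against 818 CPM, log2 ratio 0.62, interval 0.09 to 1.19, 36 and 149 UMIs). The log2 ratio was below 0 in B cell-like cells (-1.83, 64 and 5 UMIs), T or NK cell-like cells (-1.31, 29 and 7 UMIs), dendritic-like cells (-1.26, 29 and 7 UMIs), macrophage-like cells (-0.84, 87 and 76 UMIs) and tenocyte-like cells (-0.85, 580 against 321 CPM). In the leukocytes the level was at most 51.9 CPM in either library. The share of cells with an *Adamts1* UMI was not lower in T or NK cell-like (5 of 88 and 3 of 51) and dendritic-like cells (4 of 89 and 3 of 55). It was lower in B cell-like (4.57 and 1.23%), macrophage-like (6.81 and 4.80%) and tenocyte-like cells (78.3 and 35.0%). Mural-like cells had it in 7 of 15 and 15 of 28. The intervals do not allow for UMIs that lie in few cells. In WT CD, 3.65% of B cell-like, 5.68% of T or NK cell-like and 4.49% of dendritic-like cells were called as doublets, against 0.133% of FAPs, and 37.7% of all tenocyte-like cells were called as doublets. The part of doublets and free RNA in these ratios was not tested.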

How the results depend on the processing

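Over the alternatives, the median log2 ratio of the 8 members ran from 0.17 to 0.44 in WT HFD against WT CD and from -0.11 to 0.13 in KO HFD against WT HFD, so the second had no fixed sign. The number of members past the threshold in WT HFD against WT CD was 3 (*Adamts4*, *Adamts5*, *Adamts12*) at Leiden resolution 2, 2 without the FAP-like clusters led in part by *Thbs4* (*Adamts4*, *Adamts5*), 2 with FAP clusters weighted alike (*Adamts4*, *Adamts12*), 0 with TMM scaling, 0 against the other 2 libraries combined, 4 at a lower fold (*Adamts4*, *Adamts5*, *Adamts12*, *Adamts15*) and 0 at a fold of 2. For KO HFD against WT HFD it was 2 at that lower fold (*Adamts1*, *Adamts5*) and 0 under the other alternatives. No test was made under any of them. Over 8 alternatives the log2 ratio of *Adamts5* ran from 0.53 to 0.66 in the first comparison and from -0.47 to -0.12 in the second, that of *Adamts1* from -0.25 to -0.06 and from 0.28 to 0.42. *Adamts10* had the other sign in 2 of 8 alternatives in the first comparison and 3 of 8 in the second. *Adamts15* had it in 3, *Adamts2*, *Adamts4* and *Adamts12* each in 1 of the second, and no other member in either. The share of member UMIs in FAPs was 83.3% with at least 500 genes and at most 10% mitochondrial UMIs, 84.5% without doublets, 72.9% with FAPs taken by marker UMIs and 49.4% at Leiden resolution 2, where 1474, 1167 and 1613 cells were named FAPs because clusters fell under the naming score or took the tenocyte name.

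No paired analysis was possible because each group has 1 library, and leaving out a replicate was not possible for the same reason. Depth limits the small classes: the 24 mural-like cells of KO HFD gave an interval for *Adamts4* from 87.0 to 210 CPM. Counting error does not hold the difference between mice.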
